A study of Mus musculus with 4 samples.

Results

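Plasmacytoid dendritic cells (pDC) of the B16 tumour library were the 114 cells that the authors' joint annotation of the B16 and LLC libraries names pDC, out of 6870 cells of B16 and 19891 cells in both libraries. B16 is a mouse melanoma line, grown here as a subcutaneous tumour in C57BL/6J mice. LLC, the Lewis lung carcinoma line, was grown subcutaneously in mice labelled F11r fl/fl LysM-Cre-, that is, with floxed F11r and without the Cre driven from the LysM locus. The labels name no treatment, and each library was made from a pool of 3 mice. Each tumour was grown in mice of a different genotype, so tumour and mouse genotype cannot be told apart. The 21 pDC of the LLC library served as a check. Comparison classes within B16 were 134 type 1 conventional dendritic cells (cDC1), 166 type 2 conventional dendritic cells (cDC2), 156 cells named migDC and 220 B cells.

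Plasmacytoid dendritic cells are bone marrow-derived cells of round, plasma cell-like shape that sense viral and self nucleic acids in endosomes through Toll-like receptors and are known for rapid secretion of type I interferon. Their identity is held by the E protein TCF4, which binds E-box motifs in DNA, and they share several genes with the lymphoid lineage. Conventional dendritic cells, in contrast, are specialised in taking up antigen and presenting it to T cells. Within tumours, pDC are often described as poor producers of interferon.

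Transcripts were counted as unique molecular identifiers (UMIs). A level, in CPM, adds up a gene's UMIs across all cells of one class and scales the sum to 1000000 UMIs of that class. With a single library per tumour there was no replicate of any group and so no test, and all 95% intervals cover counting error only. The classes come from the authors' clustering of the same genes, which makes every difference between classes a description. Measured genes had 20 or more UMIs in the classes compared, and a gene counted as higher or lower at a 2-fold ratio, a rule of size alone. The 114 pDC held 1025316 UMIs, with 3211 to 31814 UMIs per cell (median 7591.5) and 1157 to 5623 genes per cell (median 2405). Median depth was 18435 UMIs in cDC1, 11773 in cDC2, 8794.5 in migDC and 2432.5 in B cells of B16, and 4915 in the 21 pDC of LLC. The libraries shared 29 cell barcodes, 0 of which were called pDC. Of the 114 pDC, 24 (21.1%) were among the 6% of B16 cells with the highest doublet scores, against 0.602% of cDC2, 6.36% of B cells, 8.96% of cDC1 and 8.97% of migDC. For part of the results, values are also given without those cells.

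Plasmacytoid dendritic cells made up 1.66% of the B16 library (exact 95% interval 1.37 to 1.99%). Among the 570 dendritic cells of B16 their share was 20% (16.8 to 23.5%), and among the 458 dendritic cells of LLC it was 4.59% (2.86 to 6.92%). Counted among dendritic cells, the share in B16 was 4.36-fold that in LLC (2.72 to 7.32). With all cells as the denominator the ratio was 10.3 (6.42 to 17.3). Neither sorting nor dissociation of the tissue is described in the labels, and both can set such shares.

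Marker genes of pDC were read in each cell, and every cell carried several of them. Since the label came from clustering of the same genes, this is a description and not an independent check. Siglech, a sialic acid-binding receptor of mouse pDC, was present in 114 of 114 cells with 2 to 39 UMIs each (median 15). Bst2, a tetherin that carries the PDCA-1 epitope used to stain pDC, was present in all 114 cells with 4 to 76 UMIs (median 30). Tcf4 was present in 113 cells with 0 to 33 UMIs (median 10). All 114 cells carried at least 5 of the 10 pDC markers listed, with a median of 9. The share of cells with a Siglech UMI was 1.81% in cDC2 (3 of 166) and 1.49% in cDC1 (2 of 134), both sequenced more deeply per cell than pDC. With every cell thinned to 2000 UMIs, Siglech was still seen in 92.1% of pDC (105 of 114).

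**Figure D1:**
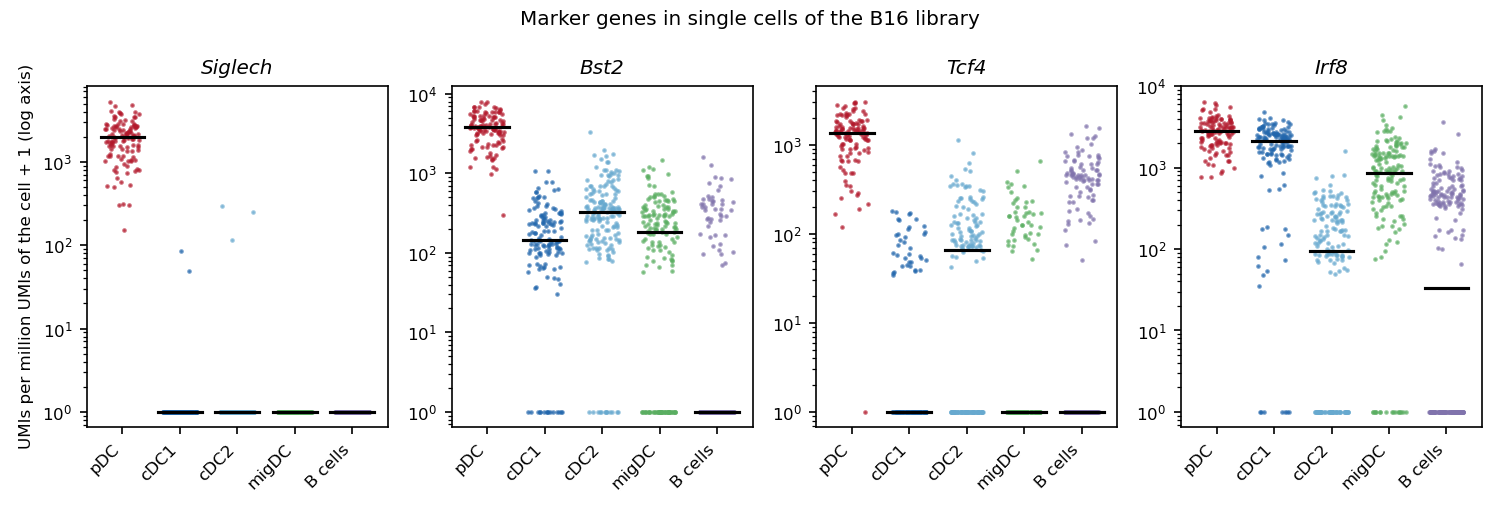
UMIs per 1000000 UMIs of each cell plus 1 (log axis) for Siglech, Bst2, Tcf4 and Irf8 in single cells of the B16 library, grouped by class, with a black line at each median. Siglech was above 0 in all 114 pDC but in only 3 cDC2 and 2 cDC1, of which the highest (298) lies above the lowest pDC (149.9). The Irf8 medians of pDC (2777) and cDC1 (2130) lie close together, but cDC1 reach down to 0 and pDC only to 764.

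Siglech (chromosome 7, 55768178 to 55778925, plus strand, GRCm38) stood at 1770 CPM in pDC (1690 to 1854), against 0.791 CPM in cDC1, 3.6 CPM in cDC2 and 0 UMIs in migDC and B cells. It was thus 492-fold higher than in cDC2 (238 to 1226), and at least 858-fold and 437-fold higher than in migDC and B cells when a class at 0 is set to a floor of 3 counts. Bst2 stood at 3472 CPM in pDC, 199.7 in cDC1, 407 in cDC2, 246 in migDC and 108 in B cells, ratios of 17.4, 8.52, 14.1 and 32.2. Tcf4 stood at 1220 CPM in pDC, 23.7 in cDC1, 93 in cDC2, 47.5 in migDC and 170.0 in B cells. Siglech was thus near 0 in the other classes compared, whereas Bst2 and Tcf4 had a level in each of them. Among the 23 classes of B16 with at least 20 cells, pDC ranked first for all 3 genes. The next class was Neutrophil-2 for Siglech (6.4 CPM) and the macrophage class TAM Lyve1 for Bst2 (673 CPM) and Tcf4 (189 CPM).

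Of the 7012 genes measured against all 4 classes, 390 (5.56%) were at least 2-fold higher in pDC than in each of them and 40 (0.57%) were at least 2-fold lower. The genes higher in pDC included 4 of 9 monocyte and macrophage markers and 2 of 3 measured melanocyte markers. The 24 pDC with the highest doublet scores held 79.9% and 79.5% of the UMIs of those marker lists. Both counts include these cells and are not given without them. The 25 genes ranked highest, by the interval bound nearest to a ratio of 1 in the closest class, were led by Klk1, a tissue kallikrein protease. Klk1 (chromosome 7, 44225360 to 44229618, plus strand) stood at 1314 CPM in 97 of 114 pDC, 0.514 CPM in cDC2, 0.688 CPM in migDC and 0 UMIs in cDC1 and B cells. Klk1b27, a close relative at 246 CPM, has a similar sequence, so the split of reads between them is uncertain. Cox6a2, a subunit of cytochrome oxidase known from heart and muscle, stood at 1524 CPM in 108 pDC and at most 1.35 CPM in the other classes. Ccr9, the receptor for the gut and thymus chemokine CCL25, stood at 1205 CPM in 111 pDC, 7.91 CPM in cDC1, 2.06 in cDC2, 2.7 in B cells and 0 UMIs in migDC. These genes were thus high in most pDC and close to the counting floor elsewhere.

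Several other genes of the 25 are best known from striated muscle. Atp2a1, the calcium pump of fast muscle, stood at 137 CPM in 79 pDC, and was at 0 UMIs in cDC1, migDC and B cells. Pgam2, the muscle form of phosphoglycerate mutase, stood at 66.3 CPM in 26 pDC and at 0 UMIs in all 4 classes. Sh3bgr stood at 102 CPM in 61 pDC and also at 0 UMIs in all 4 classes. Slpi, a secreted protease inhibitor, stood at 1079 CPM in pDC and 28.3 CPM in B cells, the highest of the 4 classes. Ctsl, the endosomal protease cathepsin L, stood at 1692 CPM in pDC and 76.9 CPM in B cells. Dntt, the DNA polymerase that adds bases at antigen receptor joints, stood at 191 CPM in 74 pDC, 0.791 CPM in cDC1 and 0 UMIs in cDC2, migDC and B cells. The remaining genes of the 25 were Paqr5, Ccdc162, Cd300c, Smim5, Pir, AC140186.1, Upb1, Cdh5, Lefty1, Klra17, Pdzd4, Ptprf, Tsc22d1 and Ly6c2. In LLC, 11 of the 25 genes, among them Atp2a1, Dntt, Cd300c and Upb1, had 0 UMIs in the whole library, so the LLC cells give no check of them. Some of the others, such as Klk1 and Cox6a2, reach the minimum of 20 UMIs there through the pDC alone among the classes compared, so no count over them is given.

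**Figure D2:**
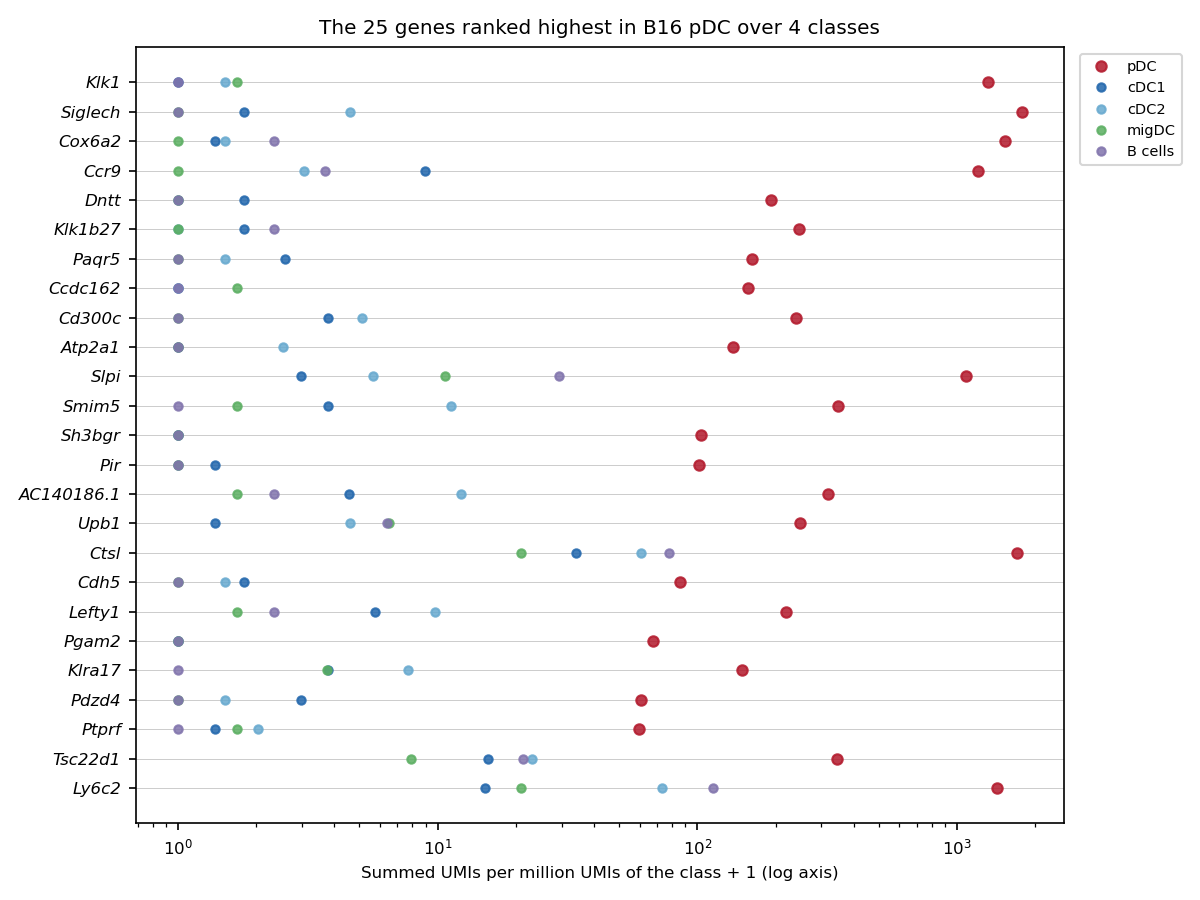
Summed UMIs per 1000000 UMIs of the class plus 1 (log axis) for the 25 genes ranked highest in pDC of B16, with 1 point per class. In every row the pDC point lies to the right of the 4 other classes.

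E-boxes, the motifs that TCF4 binds, were looked for in the 240 bases from 250 to 11 before the RefSeq start (build GRCm38.p6). This was done for the 18 of the 25 genes with a RefSeq promoter. In Atp2a1, Ccr9, Ctsl, Paqr5 and Pir the window overlaps exons annotated in GENCODE, and in Ccr9 it lies within the GENCODE gene. Ccr9 and Paqr5 are among the genes counted below with the form CAGGTG or CACCTG. The 3 shown are examples of pDC genes near 0 in the other classes that hold an E-box of the form CAGGTG or CACCTG. Pgam2, not shown, also holds that form. Capitals mark every CANNTG, which reads as the same pattern on both strands and includes that form.
Siglech, chr7:55767934-55768173, plus strand: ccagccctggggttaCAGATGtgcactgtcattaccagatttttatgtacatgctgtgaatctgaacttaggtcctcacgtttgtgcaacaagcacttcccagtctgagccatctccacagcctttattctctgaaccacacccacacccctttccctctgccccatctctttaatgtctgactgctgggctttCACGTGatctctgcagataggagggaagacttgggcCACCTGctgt
Klk1, chr7:44225110-44225349, plus strand: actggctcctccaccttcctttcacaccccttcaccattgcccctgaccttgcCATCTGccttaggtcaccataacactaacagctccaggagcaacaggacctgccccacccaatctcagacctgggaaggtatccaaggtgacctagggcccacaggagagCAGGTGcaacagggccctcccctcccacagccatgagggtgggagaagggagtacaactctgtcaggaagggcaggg
Cd300c, chr11:114960518-114960757, minus strand: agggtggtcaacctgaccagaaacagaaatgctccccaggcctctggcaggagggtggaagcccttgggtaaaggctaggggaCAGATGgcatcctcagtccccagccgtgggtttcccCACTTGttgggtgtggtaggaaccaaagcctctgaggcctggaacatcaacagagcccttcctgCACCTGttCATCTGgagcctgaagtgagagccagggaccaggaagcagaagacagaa

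The pattern CANNTG was present in 15 of the 18 windows (83.3%), against 64.9% of 27025 RefSeq promoter windows of the same length. The form CAGGTG or CACCTG was present in 7 of 18 (38.9%), against 16.5% of all windows, and CAGCTG in 3 of 18 (16.7%), against 12.2%. The base here is all RefSeq promoters, not those of measured genes, and the 18 genes were picked by rank in these data. The differences between the shares, and any part of TCF4 in them, were not tested. A match is a description of the letters and not a binding site, and no binding was measured here. Cd300c, an activating receptor of the CD300 family, stood at 239 CPM in 97 pDC, 4.11 CPM in cDC2, 2.77 CPM in cDC1 and 0 UMIs in migDC and B cells.

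Among the 12 transcription factors listed for pDC, 8 were higher than in cDC1 (background over all measured genes 16.2%), 7 than in cDC2 (16.4%), 10 than in migDC (26.5%) and 7 than in B cells (15.9%). Tcf4, Runx2 and Bcl11a were higher than in all 4 classes. Runx2, known for the exit of pDC from bone marrow, stood at 361 CPM in pDC and at 31.6 CPM in migDC, the highest of the 4 classes. Bcl11a, a zinc finger factor needed for pDC and B cells, stood at 599.8 CPM in pDC, 206 in B cells, 78.1 in cDC2, 54.2 in cDC1 and 10.3 in migDC. Others of the list marked pDC apart from dendritic cells but not from B cells. Spib, an Ets family factor of both lineages, stood at 185 CPM in pDC and 166 CPM in B cells, a ratio of 1.12 (0.885 to 1.41), whereas it was 45.1-fold higher than in cDC2. Mef2c stood at 408 CPM in pDC and 725 CPM in B cells, and Ets1 at 143 and 480.4 CPM.

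Irf8, which pDC share with cDC1, stood at 2575 CPM in pDC, 1948 in cDC1, 1002 in migDC, 321 in B cells and 174 in cDC2. The ratio of pDC over cDC1 was 1.32 (1.26 to 1.39). Irf8 was seen in all 114 pDC and in 127 of 134 cDC1. Zeb2, which represses the cDC1 programme, stood at 334 CPM in pDC and 40.3 CPM in cDC1. Cbfa2t3, a partner of corepressor complexes, went the other way, at 138 CPM in pDC, 309 in cDC1 and 367 in migDC. Id2, the inhibitor of E proteins that conventional dendritic cells use, stood at 119 CPM in pDC, 1346 in cDC1, 577 in cDC2 and 1108 in migDC. Zbtb46, the factor that marks conventional dendritic cells, had 4 UMIs in pDC (3.9 CPM), against 51.4 CPM in cDC1. Of the listed conventional dendritic cell genes, 11 of 21 measured were lower and 5 higher than in cDC1. Against cDC2 9 of 19 were lower and 3 higher, but against migDC 6 of 19 were lower and 9 higher. Of all measured genes 12.5%, 10.3% and 13% were lower and 16.2%, 16.4% and 26.5% higher. Clec10a and Kmo, listed as cDC2 markers, were seen in 84 and 91 of 114 pDC.

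Surface and effector genes listed for pDC were 30, of which 28 were in the table. Of these, 23 were higher than in all 4 classes, beside the background of 5.56%. Members of this list and of the transcription factors were chosen as genes of pDC, so these counts are descriptions. The median log2 ratio of the 28 was 5.16 against cDC1, 4.78 against cDC2, 5.95 against migDC and 3.8 against B cells, where the medians of all measured genes were 0.13, 0.18, 0.34 and 0.12. Lair1, an inhibitory collagen receptor, stood at 685 CPM in pDC and 79.1 CPM in cDC2, the highest of the 4 classes. Lag3, an inhibitory receptor that binds MHC class II, stood at 254 CPM in 95 pDC and 34 CPM in cDC1. Ly6c2 stood at 1424 CPM in 107 pDC, 113 CPM in B cells and 71.9 CPM in cDC2, and its close relatives make its counts uncertain. Ly6d, in contrast, stood at 1961 CPM in pDC and 2104 CPM in B cells, but at 3.6 CPM or less in the other dendritic cells.

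Of the nucleic acid sensing genes, 29 were listed, 26 were in the table and 22 were measured against all 4 classes. Of the 22, 4 were higher than in all 4 classes, where 5.56% of all measured genes were, namely Tlr7, Pld4, Slc15a4 and Ctsl. Tlr7, the endosomal receptor for single-stranded RNA, stood at 122 CPM in 74 pDC (101 to 145), 17.5 in B cells, 3.08 in cDC2, 1.38 in migDC and 1.19 in cDC1. Pld4, an endolysosomal nuclease, stood at 910 CPM in pDC, 299 in cDC2, 280.4 in cDC1, 104 in B cells and 61.9 in migDC. Slc15a4, the lysosomal transporter required for signalling of these receptors in pDC, stood at 83.9 CPM in pDC, at 22.5 and 34.4 CPM in cDC1 and cDC2 and at 23.4 and 40.5 CPM in migDC and B cells. The list as a whole stayed nearer to the other classes, with medians of 0.53, 0.17, 0.36 and 0.84 against cDC1, cDC2, migDC and B cells. Unc93b1, the chaperone that brings these receptors to endosomes, stood at 626 CPM in pDC, 1.91-fold higher than in cDC1 and 6.55-fold higher than in migDC. Tlr9, the receptor for unmethylated DNA, had 4 UMIs in 4 pDC, too few for a comparison. Irf5 lay below the other dendritic cells, at 81.9 CPM in pDC against 274 in cDC1, 199.9 in cDC2 and 189 in migDC.

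Transcripts of Ifnb1, an interferon, were not detected in the pDC. Ifnb1, the 1 of the 19 listed type I and III interferon genes in the table, had 0 UMIs in the 114 cells, which allows up to 2.93 CPM at a floor of 3 counts; the other 18 were not analysed here. Irf7, the factor that drives interferon transcription in pDC, stood at 167 CPM in 75 pDC, 135 CPM in cDC2, 97 in migDC, 89 in cDC1 and 44.5 in B cells. Its ratios of 1.87, 1.24 and 1.72 over cDC1, cDC2 and migDC were below 2-fold. Both chains of the type I interferon receptor were higher than in all 4 classes. Ifnar1 stood at 212 CPM in pDC and between 64.2 and 87.7 CPM in the other classes, and Ifnar2 at 195 CPM in pDC and between 40.6 and 73.2 CPM. For Ifngr1, a chain of the interferon gamma receptor, pDC had 104 CPM, against 194 CPM in cDC1 and 299 CPM in cDC2.

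Genes that interferon induces were lower in pDC than in cDC2. Of the 26 interferon-stimulated genes measured against cDC2, 15 were lower and 1 higher, with a median log2 ratio of -1.94, where 10.3% of all measured genes were lower. Against cDC1, 2 of 22 were lower and 3 higher, with a median of -0.05, beside a background of 12.5% lower, and 5 of 22 were lower without the highest doublet scores. Against migDC 9 of 23 were lower and 3 higher, beside backgrounds of 13% and 26.5%. Against B cells 3 of 21 were lower and 5 higher, with a median of 0.13, beside backgrounds of 9.88% and 15.9%. Without the highest doublet scores 2 of 17 were lower than in B cells and 7 higher, beside backgrounds of 12.3% and 17.2%. Ifit3 stood at 5.85 CPM in pDC and 125 CPM in cDC2, Isg15 at 63.4 and 236 CPM, and Ifitm3, which limits virus entry, at 522 and 4812 CPM. Bst2, itself inducible by interferon, was the 1 member higher than in all 4 classes, and Ifit1 and Ifit3 were at least 2-fold lower than in all 4, though against cDC1 their intervals (0.18 to 1.09 and 0.163 to 1.16) included 1. Of the genes induced by interferon gamma, 13 of 16 were lower than in cDC2, among them Cxcl9, a chemokine for T cells, at 22.4 CPM in pDC and 544 CPM in cDC2. Against cDC1 5 of 15 were lower, and 8 of 14 without the highest doublet scores. Gbp5 and Socs1 were lower than in all 4 classes. Iigp1 went against the list, with 125 CPM in pDC, 3.3-fold higher than in migDC and 3.19-fold higher than in B cells.

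Genes of the secretory pathway were higher in pDC more often than all measured genes. Of 28 measured members, 8 were higher than in cDC1 (background 16.2%), 14 than in cDC2 (16.4%), 22 than in migDC (26.5%) and 22 than in B cells (15.9%), and 0 were lower at 2-fold in any of the 4. Medians were 0.77, 0.87, 1.86 and 1.47, where those of all measured genes were 0.13, 0.18, 0.34 and 0.12. The 7 members higher than in all 4 classes were Xbp1, Ern1, Spcs2, Edem2, Dnajc3, Sec11c and Txndc5. Xbp1, the factor that expands the endoplasmic reticulum, stood at 344 CPM in pDC, 145 in cDC2, 122 in cDC1, 52.6 in B cells and 44.7 in migDC, and at 1375 CPM in the 54 plasma cells of B16. Ern1, which encodes IRE1, the enzyme that splices Xbp1, stood at 29.3 CPM in pDC and 10.8 CPM in cDC2. Txndc5, a protein disulphide isomerase, stood at 224 CPM in pDC, 91.8 in B cells, 54.2 in cDC1, 30.8 in cDC2 and 16.5 in migDC. Mzb1, a chaperone of antibody-secreting cells, stood at 199 CPM in 72 pDC, 350 CPM in B cells, 7.71 CPM in cDC2 and 2636 CPM in plasma cells.

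Genes of antigen presentation by MHC class II were lower than in conventional dendritic cells. Of 12 measured members, 10 were lower than in cDC1 and 11 than in cDC2, beside the backgrounds of 12.5% and 10.3%. Medians were -1.81 and -2.02, against -0.18 for migDC and -1.05 for B cells. H2-Aa, a class II alpha chain, stood at 2286 CPM in pDC, 8955 in cDC1, 10610 in cDC2, 5246 in migDC and 4096 in B cells. Single pDC spread widely in this gene, from 0 to 209 UMIs with a median of 16, and 10 of 114 had none. H2-Eb1 stood at 1295 CPM and was 5.85-fold lower than in cDC1, 6.67-fold lower than in cDC2, 2.94-fold lower than in migDC and 2.15-fold lower than in B cells. Ciita, the transactivator of class II genes, stood at 44.9 CPM in pDC, 341 in cDC1 and 349.9 in cDC2, but 50.2 CPM in migDC. March1, a ligase that removes class II from the surface, stood at 44.9 CPM in pDC, 106 CPM in cDC1 and 2.75 CPM in migDC.

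For MHC class I genes the counts were near or below the background, and show nothing about the list. Of 13 members, 2 were lower than in cDC1 (background 12.5%) and 0 lower than in the other 3 classes, and 2 were higher than in migDC (26.5%) and 2 than in B cells (15.9%). H2-K1, a class I heavy chain, stood at 2937 CPM in pDC, 1573 in cDC1, 1927 in cDC2, 2974 in migDC and 2194 in B cells.

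Several costimulatory genes were low in pDC. Cd86 stood at 31.2 CPM in 14 pDC, 161 in cDC1, 189.6 in cDC2 and 271 in migDC, and at 31 CPM in B cells. Cd40, the receptor targeted by the agonists named in the study's title, had 11 UMIs in 7 pDC (10.7 CPM), against 20.6 CPM in cDC1, 92 in cDC2, 246 in migDC and 58 in B cells. Cd83, which stabilises class II and CD86 on mature dendritic cells, was the gene ranked lowest in pDC, at 13.7 CPM, 52.6-fold lower than in migDC and 6.86-fold lower than in cDC1. Of the list, 10 of 15 measured members were lower and 3 higher than in migDC (median -2.97), and 8 of 14 lower and 3 higher than in cDC2 (-2.17). Against cDC1 5 of 13 were lower and 2 higher (-0.41), and against B cells 5 of 12 lower and 2 higher (-0.42). Of all measured genes, 13% were lower than in migDC, 10.3% than in cDC2, 12.5% than in cDC1 and 9.88% than in B cells. Without the highest doublet scores the median against cDC1 was -0.92. Lag3 was the 1 member higher than in all 4 classes and Icosl, a ligand for the T cell receptor ICOS, the 1 lower than in all 4, at 14.6 CPM in pDC and 33.6 to 62.6 CPM elsewhere.

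**Figure D3:**
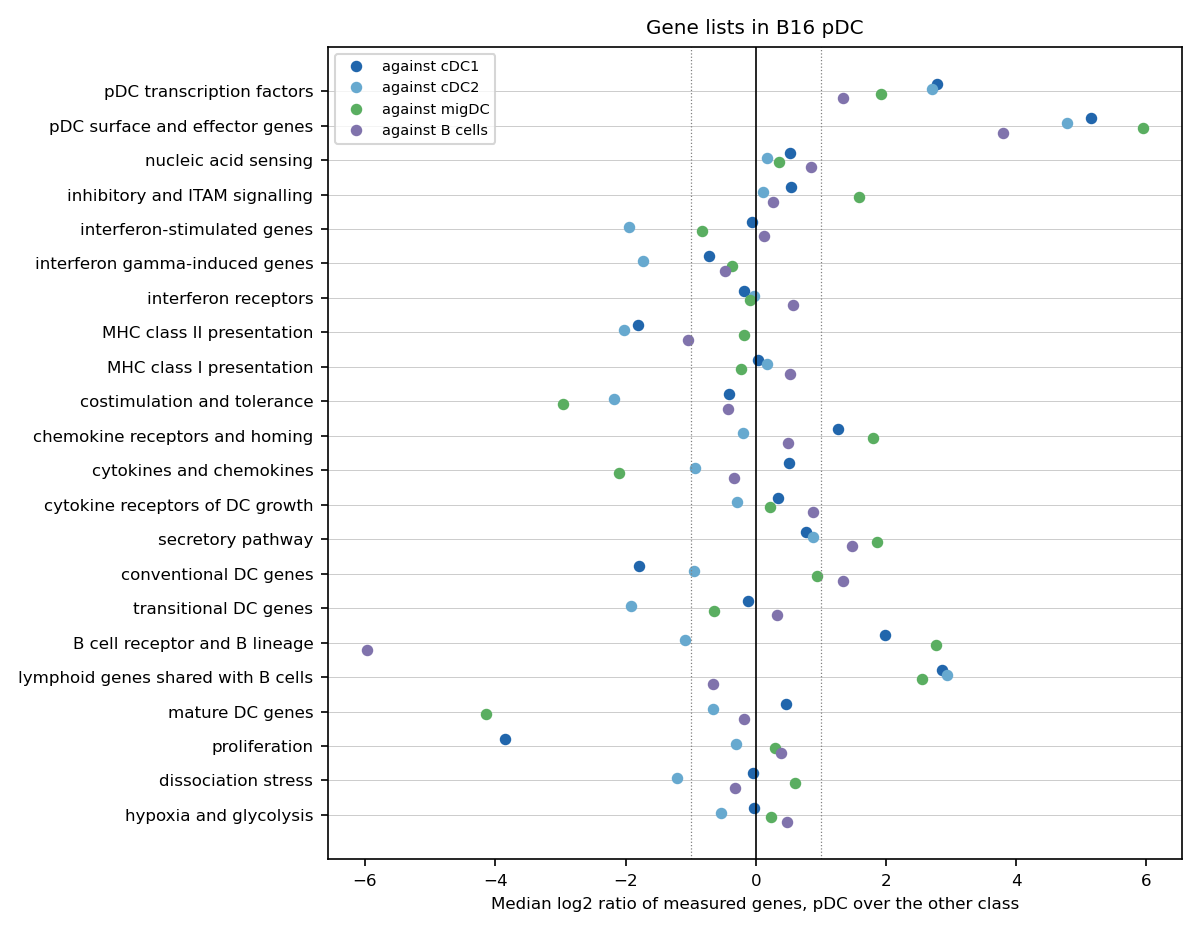
Median log2 ratio of the measured genes of each list, pDC of B16 over each of the 4 other classes, with dotted lines at 2-fold. Lists of pDC genes lie to the right of the upper 2-fold line in all 4 comparisons, MHC class II genes to the left of the lower one against cDC1, cDC2 and B cells, and secretory pathway genes between 0.77 and 1.86.

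Lymphoid genes listed as shared with B cells separated pDC from the other dendritic cells more than from B cells. Members were chosen for that sharing, so these counts are a description and no test of it. Of 21 measured genes shared between pDC and the B lineage, 19 were higher than in cDC1 (background 16.2%), 18 than in cDC2 (16.4%) and 15 than in migDC (26.5%). Against B cells 4 were higher, near the background of 15.9%, and 9 were lower, beside 9.88%. Iglc3, a constant region of the lambda light chain, stood at 935 CPM in 102 of 114 pDC, 1099.9 CPM in B cells, 2.57 CPM in cDC2 and 0 UMIs in cDC1 and migDC. Reads of this gene can be split among near-identical constant regions. Ighm, the heavy chain of IgM, stood at 710.0 CPM in pDC and 2572 CPM in B cells, with at least 1 UMI in all 114 pDC and in 60.8% of cDC2. Igkc, the kappa chain, behaved differently, at 664 CPM in pDC and 9803 CPM in B cells, and was seen in 83.3% of pDC and 78% of CD8 T cells, a class that should lack it. Thinned to 2000 UMIs per cell, these Igkc shares were 57.9% and 27.5%. Iglc3 was seen in 0.762% of CD8 T cells, against 89.5% of pDC.

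Other genes of the B cell receptor were far below their level in B cells. All 18 genes listed for the B cell receptor and B lineage were lower than in B cells (background 9.88%), with a median of -5.97. Members were chosen as genes of B cells, so this count is a description. Cd79a, a signalling chain of the receptor, had 4 UMIs in 1 pDC (3.9 CPM), against 2872 CPM in B cells. Cd79b, the other signalling chain, stood at 55.6 CPM in 38 pDC and 1943 CPM in B cells, while the classes other than pDC had a median of 11.7 CPM. Blnk, an adaptor below that receptor, stood at 172 CPM in pDC, 135 in B cells and 9.76 in cDC2, a ratio of 1.27 over B cells (0.99 to 1.64). Cd7 stood at 417 CPM in pDC, 79.6 in cDC2, 40.5 in B cells, 24.9 in cDC1 and 2.75 in migDC.

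Genes of maturation were low in pDC beside migDC, and genes of the cell cycle beside cDC1. All 19 mature dendritic cell genes were lower than in migDC, with a median of -4.14, where 13% of all measured genes were lower. Members such as Ccr7, Fscn1 and Ccl22 also served as markers of migDC, so this count is a description. Against the other classes this list was mixed. Against cDC1 4 of 15 were higher and 4 lower (median 0.46, or -0.04 without the highest doublet scores), and against cDC2 1 of 16 was higher and 6 lower. Against B cells 3 of 14 were higher and 4 lower, but 0 and 7 of 13 without the highest doublet scores. Fscn1, the actin bundler of mature dendritic cells, and Ccl22, a chemokine for regulatory T cells, both had 0 UMIs in the 114 pDC, against 1470 and 755 CPM in migDC. Of 16 proliferation genes, 14 were lower than in cDC1 (background 12.5%), with a median of -3.85, and 0 were higher. Mki67 stood at 6.83 CPM in pDC, 226 in cDC1, 11.8 in cDC2 and 6.88 in migDC, and Top2a at 9.75 CPM in pDC and 328 in cDC1. Against cDC2, 1 of 12 measured proliferation genes was lower, with a median of -0.30, but 6 of 10 without the highest doublet scores, with a median of -1.28. Against migDC and B cells 1 of 10 and 1 of 8 were lower, with medians of 0.29 and 0.38.

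Genes ranked lowest in pDC over all 4 classes were Cd83, H2-Eb1, Socs1, Tmsb10, Samhd1, H2-DMb2, H2-Aa, Serpina3g, Tmem131l and Junb. H2-DMb2, a chain of the peptide loader of class II, stood at 32.2 CPM in pDC, 436 in cDC2 and 417 in B cells. Tmsb10, an actin-binding thymosin, stood at 803 CPM in pDC and 2491 CPM in cDC1. Against single classes the lowest genes included markers of the other class. Xcr1, Tlr3, Plet1, Naaa and Pclaf ranked lowest against cDC1, with Xcr1 at 1.95 CPM in pDC and 540 CPM in cDC1. Ifitm1, Ffar2, Cxcl9, Ms4a4c and Ifitm2 ranked lowest against cDC2, with Ifitm1 at 95.6 CPM in pDC and 5495 CPM in cDC2. Fscn1, Ccl22, Ramp3, Scin and Cacnb3 ranked lowest against migDC, and Cd79a, Fcmr, Ebf1, Ms4a1 and Fcer2a against B cells. The highest genes against a single class were in most cases Ly6d, Klk1, Cox6a2, Siglech and Ccr9, joined by Atp1b1 against cDC1 and Smim5 against B cells.

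Within the 114 pDC, genes that divide mouse pDC into subsets were present in part of the cells. Cd4 was seen in 72 cells (63.2%), Cd8a in 52 (45.6%), Klra17 in 74, Dntt in 74 and Cxcr3 in 48. Cd4 was about as frequent in the 69 pDC without any T cell marker UMI (43 cells, 62.3%) as in the 45 with one (29 cells, 64.4%). For Cd8a the counts were 32 of 69 and 20 of 45. In B cells, which should lack both, the shares were 5.91% for Cd4 and 5% for Cd8a, at a lower depth. Thinned to 2000 UMIs, Cd4 was seen in 28.9% of pDC and 0.588% of B cells, and Cd8a in 22.8% and 2.94%. Gzmb, the cytotoxic protease granzyme B, followed the T cell markers: 9 of the 11 pDC that carried it had a T cell marker UMI, and it stood at 3.56 CPM in the 69 pDC without one and 114 CPM in the 45 with one. Cx3cr1, a gene of transitional dendritic cells, was seen in 12 pDC, 7 of them among the highest doublet scores, and stood at 66.3 CPM with those and 14.6 CPM without.

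RNA of other cell types was spread unevenly over the pDC. A T cell marker UMI was present in 39.5% of pDC and a monocyte or macrophage marker UMI in 76.3% (73.3% without the highest doublet scores), but at least 10 such UMIs in 14 and 16 of 114 cells. Markers of T cells (7 genes) summed to 632 UMIs (616 CPM), of which the 24 pDC with the highest doublet scores held 518 (82%), and 69 pDC had none. Markers of monocytes and macrophages (9 genes) summed to 2070 UMIs (2019 CPM), of which those 24 cells held 1653 (79.9%). Without the 24 cells, the sums were 166 and 607 CPM. High counts remained in single cells outside the 24. A pDC of 28002 UMIs held 252 macrophage marker UMIs, and another of 11772 UMIs held 36 T cell marker UMIs. Melanocyte markers summed to 88 UMIs in 17 pDC, 63 of them in 1 cell, NK cell markers to 4 UMIs and mast cell and basophil markers to 0. The cytokine and chemokine list moved with the 24 cells: its median against cDC1 was 0.51 with all pDC and -0.52 without the 24. Ccl4 stood at 293 CPM in 39 pDC and at 189 CPM without them, and Ccl8 had 106 of its 116 UMIs in 1 cell. The part of these cells in other differences was not tested beyond the values given with and without them.

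**Figure D4:**
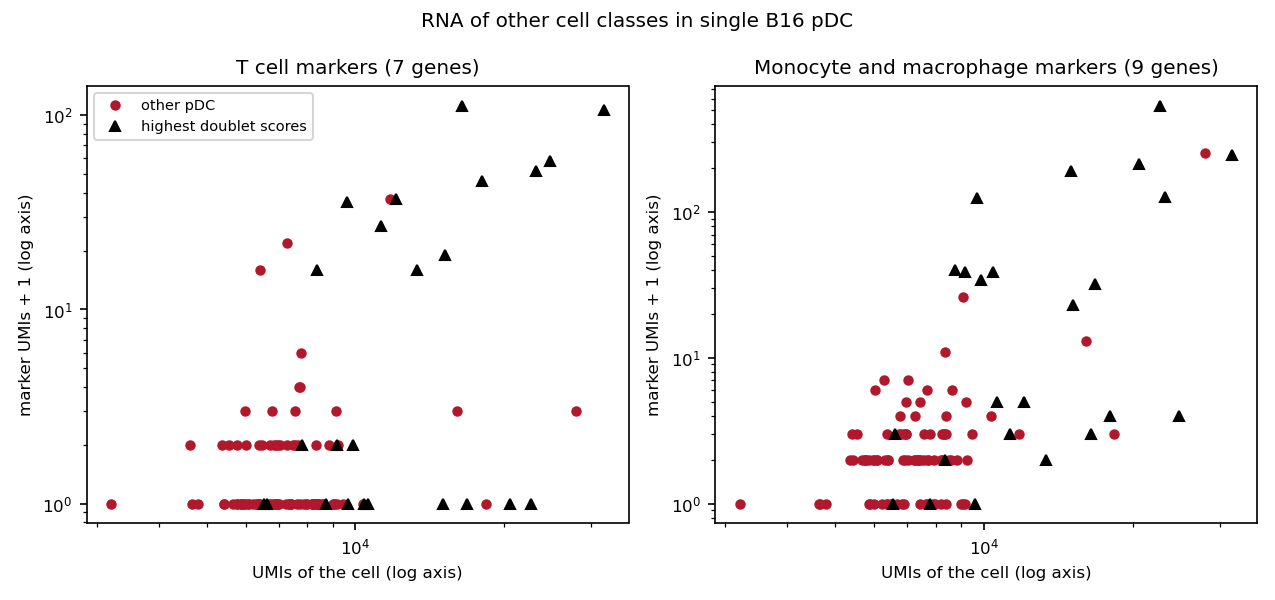
Summed UMIs plus 1 of 7 T cell markers (left) and 9 monocyte and macrophage markers (right) against total UMIs in each of the 114 pDC of B16, both axes log. Triangles, the 24 cells with the highest doublet scores, hold 518 of 632 T cell marker UMIs and 1653 of 2070 macrophage marker UMIs.

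Between tumours, most genes listed for pDC differed by less than 2-fold. Siglech stood at 1770 CPM in pDC of B16 and 2076 CPM in those of LLC (ratio 0.853, 0.748 to 0.976), Bst2 at 3472 and 3025 CPM (1.15, 1.03 to 1.28) and Ccr9 at 1205 and 949 CPM (1.27, 1.05 to 1.55). Tcf4 was lower in B16, at 1220 against 2027 CPM (0.602, 0.525 to 0.692). Of the 25 surface and effector genes measured in both, 0 were past 2-fold in either direction, where 10.9% of 6010 measured genes were higher and 7.65% lower. Slpi was a departure among the named genes, with 1079 CPM against 235 CPM in LLC, or 4.59-fold higher in B16 (3.18 to 6.88). Presentation and interferon genes leaned toward B16: 3 of 11 MHC class II genes and 5 of 11 interferon gamma-induced genes were higher and 0 lower, with medians of 0.77 and 0.88. H2-Aa had 2286 CPM against 1127 CPM in LLC (2.03, 1.71 to 2.42), and Irf7 at 167 and 56.8 CPM (2.94, 1.4 to 7.42), the latter with 7 UMIs in LLC.

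The genes furthest apart between the tumours were outside the lists of pDC genes. Highest in B16 were Ccl5, Cd3g, AW112010, Tnfrsf9 and Ccl8, and 4 of these 5 had 0 UMIs in the 21 LLC cells. Ccl5 was at least 17.4-fold higher, or at least 12.1-fold without the highest doublet scores, and 190 of its 433 UMIs lay in 1 cell. Cd3g, a chain of the T cell receptor complex, went from at least 7.9-fold to at least 1.59-fold, and AW112010 from 13.2-fold to 4.15-fold. Tnfrsf9 and Ccl8 showed no direction without those cells. Lowest in B16 were Thbs1, S100a9, Cxcl3, Fn1 and Cxcl2. S100a9, a neutrophil gene, had 5.85 CPM against 989 CPM in LLC, and Cxcl2 at 38 and 803 CPM. Neutrophil markers summed to 44.9 CPM in pDC of B16 and 1557 CPM in those of LLC, where 18 of 21 cells carried them, and T cell markers to 616 and 8.11 CPM. In LLC 110 of the 192 neutrophil marker UMIs lay in 1 cell, with a median of 2 per cell, and in B16 21 of 46. The part of this RNA in the differences was not tested.

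**Figure D5:**
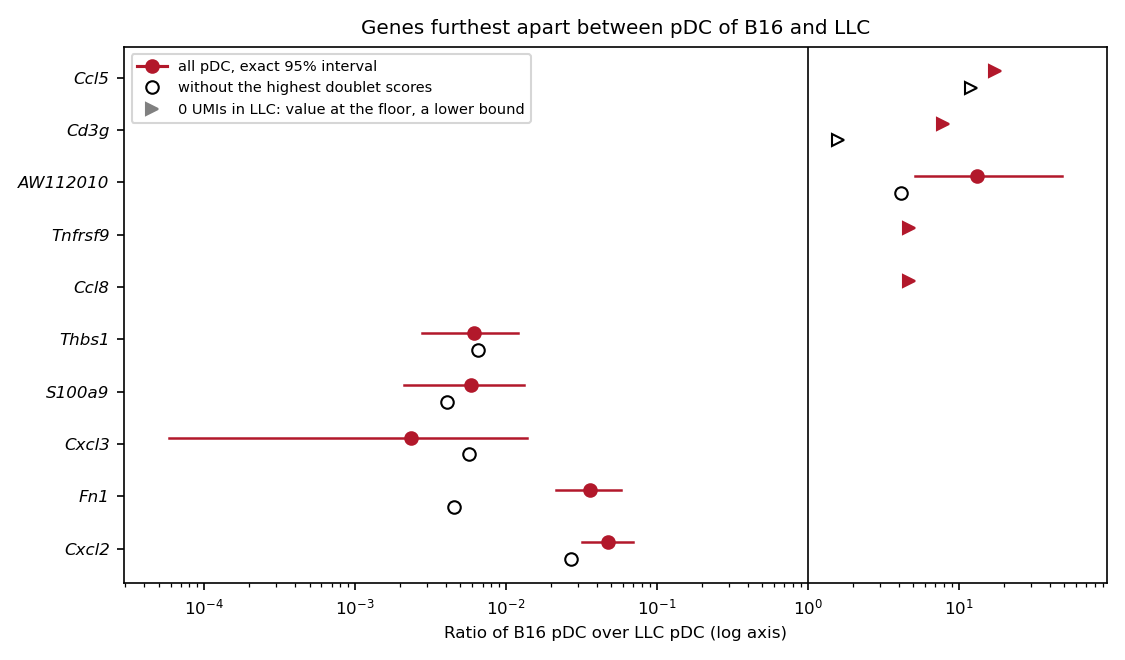
Ratio of pDC of B16 over pDC of LLC (log axis) for the 5 genes highest and the 5 lowest in B16, with exact 95% intervals, triangles for lower bounds where LLC had 0 UMIs, and open symbols without the highest doublet scores. Cd3g and AW112010 lie closer to 1 without those cells, Tnfrsf9 and Ccl8 then have no direction and no open symbol, and the 5 lowest genes stay below 0.05.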

How the data were processed

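The authors deposited whole-number UMI counts per gene and cell after filtering, per the labels, and a table of cells with their annotation. Reads went through Cell Ranger against mm10, per the submitters' processing notes; no version is stated there. The joint table of B16 and LLC holds 13071 genes and 25 annotated classes. The CITE-seq library was not used here. Raw counts were summed per class with Python 3.11.15, pandas 2.3.3 and scipy 1.17.1. Ratios have exact conditional binomial 95% intervals, single levels exact Poisson and shares Clopper-Pearson intervals. A class at 0 UMIs was set to a floor of 3 counts and the ratio called "at least"; where that bound fell on the other side of 1, no direction was given (68 genes of B16 over LLC). Genes with 0 UMIs in the whole LLC library were left out of LLC ratios. The self-test on simulated counts checked the ratios and intervals.

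Doublets: scores came from Scrublet in scanpy 1.11.5, run per library; no cell was removed, and the top 6% were left out as an alternative. The labels do not say whether the authors removed doublets. Named genes are the 25 highest and 10 lowest against all 4 classes by the interval bound nearest to 1, with at least 50 CPM in pDC (highest) or in each class compared (lowest), the 5 highest and 5 lowest against each class and between tumours, Siglech, Bst2 and Tcf4, and examples from the lists; mitochondrial, ribosomal protein, predicted, antigen receptor segment, haemoglobin, Xist, Tsix and Y-linked genes were not ranked. Id2, Iigp1 and other list members were picked as examples after their values were seen. The 23 gene lists and the members were chosen with earlier results of these data known. Of 455 listed genes, 422 were in the table; some members are not reported here by name. Promoters are from RefSeq (GRCm38.p6) and gene positions from GENCODE (GRCm38). Alternatives were thinning to 2000 UMIs, median-of-ratios scaling, a mean over cells, another total, 50 UMIs or no minimum, a 1.5-fold call and the annotation and table of B16 alone.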

Additional observations from a re-analysis of the deposited data

Results flagged for a closer look

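Thbs1, which encodes the matrix glycoprotein thrombospondin 1, went in opposite directions in the tumours: pDC over migDC was 0.354 in B16 (0.15 to 0.75) and 9.17 in LLC. It stood at 8.78 CPM in pDC of B16, in 3 cells, and at 1419 CPM in pDC of LLC, in 6 cells. The difference between the tumours was not tested, since each is 1 library.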

How the results depend on the processing

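No paired analysis was possible because each group is 1 library. The counts of genes at least 2-fold higher and lower in pDC were 1430 and 1104 against cDC1, 1360 and 849 against cDC2, 2077 and 1017 against migDC, 1174 and 728 against B cells, and 653 and 460 for B16 over LLC. With cells thinned to 2000 UMIs they were 637 and 395, 626 and 503, 881 and 672, 713 higher against B cells, and 217 and 139. With a minimum of 50 UMIs they were 889 and 733 against cDC1, 805 higher against cDC2, 1227 higher against migDC, 707 and 366 against B cells, and 220 and 154 between tumours. With no minimum they were 2536, 2333 and 3289 higher against cDC1, cDC2 and migDC, 1851 and 1545 against B cells, and 1680 lower between tumours. At 1.5-fold they were 2535 and 1735, 2443 and 1374, 3153 higher against migDC, 2059 and 1395, and 1169 and 1216. These alternatives change the genes tested, the depth per cell or the fold itself, and their parts in the moved counts were not tested. Without the highest doublet scores, 419 genes were higher in B16 than in LLC in place of 653, and 23 in place of 15 of 88 list and class pairs had a median at least 2-fold lower; the cause was not tested. With dendritic cells as the base, the pDC share was 20% and its ratio to LLC 4.36. Thinned to 2000 UMIs, 20.2% in place of 39.5% of pDC had a T cell marker UMI, 39.5% in place of 76.3% a macrophage marker UMI, and 93.9% in place of 100% at least 5 of 10 pDC markers. Higher genes made up 61.6% of calls against cDC2 and 67.1% against migDC, but 51% and 51.4% with median-of-ratios scaling; against B cells the share was 61.7%, and 49.7% with a total that leaves out mitochondrial, ribosomal protein and immunoglobulin genes. Of 1254 recomputed ratios of named genes, 976 stayed within the 95% interval of the reported ratio, 278 left it, and 0 reversed. The settings differed widely in this. Of 182 ratios each, 120 left the interval with thinning to 2000 UMIs and 52 without the highest doublet scores, but 5 with the other total. Of 88 list medians against the 4 classes, 25 changed sign under some alternative, 5 of them from at least 0.5 in size: conventional dendritic cell genes against migDC (0.93, down to -3.06), B cell receptor genes against cDC2 (-1.09, up to 2.29), interferon-stimulated genes against migDC (-0.83, up to 0.18), dissociation genes against migDC (0.60, down to -0.04) and cytokines against cDC1 (0.51, down to -0.52). At this depth the 4 UMIs of Tlr9 and the 0 of Ifnb1 allow no comparison, and levels in LLC rest on 21 pDC.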

Other observations

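Homing and growth receptors added to the profile of the B16 pDC. Of 15 chemokine receptor and homing genes measured against all 4 classes, those higher than in each included Ccr9 and Cx3cr1; Cx3cr1 rested in large part on cells with high doublet scores. Csf2rb2, a beta chain of the IL-3 receptor, stood at 291 CPM in 92 pDC, 67.3 in cDC2, 65.4 in migDC, 35.2 in cDC1 and 6.75 in B cells. Il7r, the alpha chain of the IL-7 receptor, was seen in 110 of 114 pDC, at 489.6 CPM, against 332 CPM in migDC and 15.8 CPM in cDC1. Flt3, the receptor for the growth factor of dendritic cells, stood at 68.3 CPM in pDC, 164 in cDC1, 106 in migDC and 38 in cDC2. Among 17 genes induced by tissue dissociation, 9 were lower than in cDC2 and 0 higher, where 10.3% of all measured genes were lower. Against migDC 5 of 16 were higher and 2 lower, near the backgrounds of 26.5% and 13%, and 4 of 15 each without the highest doublet scores.

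One pDC of 18352 UMIs and 3804 genes, not among the highest doublet scores, held all 31 UMIs of Il12b, a subunit of interleukin-12, as well as 29 of 36 UMIs of Ccr7, the receptor for migration to lymph nodes. It also held 190 UMIs of Ccl5, 11 of 32 of Cd86 and 4 of Cd40, but 0 of Fscn1 and of Ccl22, with Siglech at 19, Bst2 at 42, Tcf4 at 5 and Ccr9 at 12 UMIs. The annotation of B16 alone named the same 114 cells pDC and added 2 cells that the joint annotation calls cDC2, with 0 and 2 Siglech UMIs, 3 and 26 Bst2 UMIs and 5 Tcf4 UMIs each. These cells were noticed after their values were seen.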
